A study of Mus musculus with 14 samples.

Results

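Expression was compared between bulge cells that lacked G9a and bulge cells that kept it, taken from unchallenged (homeostatic) epidermis of 15-week-old mice. The groups compared held 7 of the 14 arrays of the series: those titled as bulge cells with a G9a conditional knockout (cKO, n = 4) and those titled as bulge cells of G9a wild type (WT, n = 3). The other 7 arrays held interfollicular epidermis (IFE, the epidermis between hair follicles) of the same 2 genotypes, with 4 cKO and 3 WT arrays. They entered the same fit, so the spread behind each standard error and p-value was estimated over all 14 arrays. The sources used here do not give the Cre driver of the knockout, the way bulge cells were separated or any allele that the WT mice share. Whether replicates came from separate animals is not stated in the labels. The p-values therefore measure only the spread between these samples, which may be technical.

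G9a, encoded by Ehmt2, is the histone methyltransferase that places mono- and dimethyl marks on lysine 9 of histone H3, mostly outside constitutive heterochromatin, and works as a dimer with the related enzyme GLP, encoded by Ehmt1. The mark is associated with transcriptional repression. The bulge is the niche of the hair follicle that holds slow-cycling stem cells, marked by Cd34 and Lgr5, which regrow the follicle in each hair cycle and can supply the epidermis after wounding.

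Values are log2 signals per probe set, so a difference of 1 is a doubling of signal. The median signal of an array lay between 5.76 and 5.84. No detection calls were used, so a signal below that median is given as read and was not tested against background. Of the 17097 genes tested, a gene was called changed at an adjusted p under 0.05 in limma, a linear model fitted to each gene with a spread moderated across genes. Signals below are ordered as cKO replicates 1, 2, 3 and 4 and WT replicates 1, 2 and 3.

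The knockout was visible on 1 of the 2 Ehmt2 probe sets. On it the cKO arrays read 5.85, 5.98, 5.94 and 6.02, and the WT arrays 9.69, 9.51 and 9.69, a difference of -3.68 (SE 0.06, limma adjusted p = 1.78e-11 over all probe sets). The other probe set, which has the higher mean signal and therefore stands for Ehmt2 among the genes tested, read 7.84 to 8.00 in cKO and 7.84 to 8.04 in WT (0.01, SE 0.06). The sources used here do not place either probe set against the deleted exons, so the second one checks nothing about the deletion. Ehmt1 differed by -0.19 (SE 0.11, adjusted p = 0.269). The bulge label was borne out by marker levels, since the mean signal over 31 bulge surface, niche and signal genes was 9.84 to 10.02 on bulge WT arrays and 6.83 to 6.90 on IFE WT arrays.

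Bulge cKO replicates 2 and 3 stood apart from the other bulge arrays. The first principal component of all 14 arrays (72.5% of the variance) set bulge cells against IFE cells, with bulge WT arrays between -48.2 and -42.4 and IFE arrays between 23 and 40.1. Replicates 1 and 4 of the cKO lay at -36.7 and -37.2, but replicates 2 and 3 at -6.9 and -11.3, nearer to the IFE arrays. Called genes are therefore also described from a fit without both arrays. That fit keeps replicates 1 and 4, which lay on the IFE side of the bulge WT range.

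Promoter sequences are shown for Gpa33, for the neighbours Akr1c12 and Akr1c13, which rose together, and for Tll1 and Serpina3n, the 2 largest falls, so that their CG content can be read beside that of all called genes. Each run is the 250 bases before the gene's start, taken from RefSeq on build GRCm38.p6, 5′ to 3′ on the gene's strand, with CG dinucleotides in capitals. Gpa33 lies on the plus strand at chr1:166129971-166130220, Akr1c12 on the minus strand at chr13:4279400-4279649, Akr1c13 on the plus strand at chr13:4190937-4191186, Tll1 on the minus strand at chr8:64206009-64206258, and Serpina3n on the plus strand at chr12:104406458-104406707.
Gpa33: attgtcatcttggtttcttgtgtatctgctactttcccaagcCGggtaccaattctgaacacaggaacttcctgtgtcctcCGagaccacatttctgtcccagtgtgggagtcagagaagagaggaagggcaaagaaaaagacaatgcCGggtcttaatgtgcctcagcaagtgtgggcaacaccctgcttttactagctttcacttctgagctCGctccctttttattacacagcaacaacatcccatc
Akr1c12: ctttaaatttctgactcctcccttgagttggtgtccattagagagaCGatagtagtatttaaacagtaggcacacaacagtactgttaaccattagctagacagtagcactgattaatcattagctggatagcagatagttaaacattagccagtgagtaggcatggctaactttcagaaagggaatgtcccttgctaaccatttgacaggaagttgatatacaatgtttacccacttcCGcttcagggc
Akr1c13: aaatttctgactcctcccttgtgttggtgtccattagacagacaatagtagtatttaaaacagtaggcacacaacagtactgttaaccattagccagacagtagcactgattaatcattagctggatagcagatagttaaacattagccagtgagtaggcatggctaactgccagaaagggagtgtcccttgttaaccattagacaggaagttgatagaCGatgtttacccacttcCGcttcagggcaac
Tll1: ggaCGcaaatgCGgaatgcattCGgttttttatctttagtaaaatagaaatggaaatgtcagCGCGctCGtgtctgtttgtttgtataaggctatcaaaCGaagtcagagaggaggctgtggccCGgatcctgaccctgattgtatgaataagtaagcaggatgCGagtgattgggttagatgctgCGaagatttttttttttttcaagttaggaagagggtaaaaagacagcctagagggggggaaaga
Serpina3n: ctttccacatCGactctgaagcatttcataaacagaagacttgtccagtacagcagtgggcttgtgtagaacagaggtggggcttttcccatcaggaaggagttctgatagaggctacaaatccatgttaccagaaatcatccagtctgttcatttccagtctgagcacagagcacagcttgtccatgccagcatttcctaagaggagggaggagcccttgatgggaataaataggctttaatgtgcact

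The Gpa33 promoter held 4 CG dinucleotides, those of Akr1c12 and Akr1c13 held 2 each, that of Tll1 10 and that of Serpina3n 1. The promoters of the neighbouring genes Akr1c12 and Akr1c13 were 95.5% identical over 246 aligned bases, with 8 gap positions. CG reads the same on both strands, and 96.8% of the 13605 promoters matched to a tested gene held at least 1. Over all of these promoters the median was 13 CG in 250 bases. For the 251 matched genes called higher in cKO the median was 7, and for the 242 called lower it was 15.5. Promoters with 5 CG or fewer made up 47.0% of the former, 14.9% of the latter and 27.7% of all. In the stable genes defined further on, the medians were 4 for rises (33 matched) and 10 for falls (27 matched), and 69.7% and 40.7% had 5 CG or fewer. For changes of at least 1.5-fold these shares were 51.1% for rises and 31.0% for falls, so the low share among falls did not hold for the larger or stable ones. These counts are a description of the sequences and were not tested.

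Between the bulge cKO and bulge WT arrays 656 of 17097 genes were called changed, 3.84% of those tested. Of these, 339 were higher in cKO (1.98% of genes tested) and 317 lower (1.85%), so 51.7% of the calls were rises. With each array centred on its own median, 234 were higher and 330 lower, 41.5% rises. The median difference over all genes was 0.01 as deposited and -0.01 after centring. At least 2-fold changes were called for 63 genes that rose and 28 that fell. An unadjusted p under 0.05 was reached by 4390 genes. The 4 cKO and 3 WT values did not overlap for 3171 genes (18.5%), of which 1795 were higher in cKO (10.5%) and 1376 lower (8.05%).

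The number of calls depended on a few arrays. Without cKO replicates 2 and 3 together it was 116 (0.678% of genes tested), 77 higher and 39 lower, and 104 of the 656 genes were among them. The direction of the difference was the same for all 656 genes in that fit. Leaving out a single array gave 212 calls without cKO replicate 2, 185 without cKO replicate 3, 116 without WT replicate 1 and 134 without WT replicate 2, against 987 without cKO replicate 1 and 2553 without cKO replicate 4. Leaving out an IFE array, which alters only the shared spread, gave 341 calls without IFE cKO replicate 3, 402 without IFE WT replicate 1 and 439 to 697 for the other 5. A set of 77 genes, 44 higher and 33 lower, was called in all 14 fits that left out 1 array and also without cKO replicates 2 and 3. They are called stable below. A fit to the 7 bulge arrays alone, with fewer samples, called 72 genes and was not part of this definition.

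The largest rises among the stable genes started from low to moderate signals in WT bulge cells. Minar2, a membrane protein named for its association with Notch2, read 8.95, 8.71, 8.54 and 9.35 in cKO and 5.61, 5.31 and 5.59 in WT, a rise of 3.38 (SE 0.25, adjusted p = 2.57e-05). Gpa33, which encodes a cell surface antigen of the intestinal epithelium, read 9.75, 9.34, 9.56 and 9.88 in cKO and 6.46, 6.42 and 6.28 in WT, a 9.5-fold rise (log2 difference 3.25, SE 0.11, adjusted p = 2.71e-08). The largest rises and falls were taken from called genes whose groups do not overlap, so that a lack of overlap is no further result. In both genes the gap between the groups was wide, and cKO replicates 2 and 3 read lower than replicates 1 and 4. Tspan8, a tetraspanin best known from gut and pancreatic epithelium, read 8.38, 9.32, 9.06 and 8.99 against 6.98, 6.38 and 6.97, a rise of 2.16 (SE 0.22, adjusted p = 0.000449). The gap between its groups was smaller. Other probe sets differed by 1.57 for Minar2, by 2.02 for Gpa33 and by 0.31, 1.19 and 0.75 for Tspan8.

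A pair of aldo-keto reductases, enzymes that reduce steroids and other carbonyl compounds, rose with little spread. Akr1c12 read 7.81, 8.20, 7.98 and 8.19 in cKO and 5.53, 5.40 and 5.37 in WT (difference 2.61, SE 0.11, adjusted p = 1.67e-07). Akr1c13 read 7.66, 7.59, 7.55 and 8.02 in cKO and 5.42, 5.51 and 5.48 in WT (difference 2.23, SE 0.11, adjusted p = 5.82e-07). The promoters of the 2 genes are near copies, and whether the probes tell their transcripts apart was not tested. A second Akr1c12 probe set differed by 1.07. The measured members of the same cluster Akr1c14 and Akr1c18 differed by 0.01 and 1.37 and were not called. Akr1c12 and Akr1c13 were the only called genes among 36 measured genes of aldo-keto reductase and xenobiotic metabolism. This is 5.56% of the list, beside 3.84% of all genes.

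Slc38a4, a neutral amino acid transporter that is imprinted in the mouse, read 9.70, 9.94, 9.76 and 9.91 in cKO and 8.26, 7.37 and 7.48 in WT, a 4.36-fold rise (difference 2.12, SE 0.20, adjusted p = 0.000234). The cKO arrays lay close together, and WT replicate 1 read above the other WT arrays. Among 49 measured imprinted genes, Snrpn and Snurf, which share a transcript of the Prader-Willi region, rose by 0.66 (SE 0.08) and 0.79 (SE 0.11), and Ndn of the same region by 0.41 (SE 0.10) from a signal below the array median. Sgce fell by 0.95 and Grb10 by 0.56. With Slc38a4 the 6 called genes were 12.2% of the list, beside 3.84% of all genes. Slc38a4, Snrpn and Snurf were stable, while Sgce and Grb10 were not called without cKO replicates 2 and 3 (adjusted p = 0.306 and 0.352). Ndn kept its call there and lost it without cKO replicate 1 or 3, any 1 WT array or any 1 of 6 IFE arrays (adjusted p up to 0.165).

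**Figure D1:**
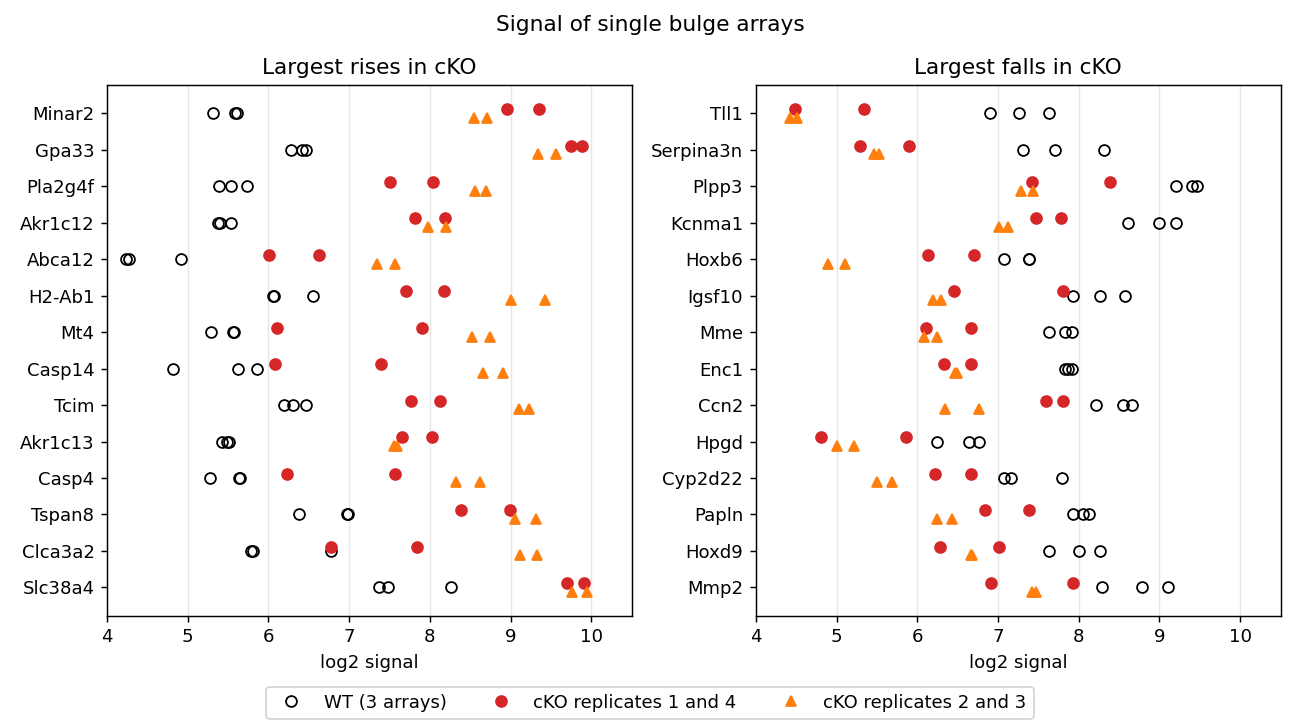
Log2 signal (horizontal axis) of the largest rises and falls on single bulge arrays, with open circles for the 3 WT arrays, red circles for cKO replicates 1 and 4 and orange triangles for cKO replicates 2 and 3. In Minar2, Gpa33 and Akr1c12 the 4 cKO arrays lie together above WT, whereas in Casp14, Mt4 and Casp4 replicate 1 lies near WT and replicates 2 and 3 lie highest.

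Further stable rises, chosen after their values were seen, included Xkr6, a member of the XK family of membrane proteins, by 1.61 (SE 0.12), and the collagen receptor kinase Ddr2 by 1.26 (SE 0.15). Gkn1, a gastric mucosal protein, rose by 1.12 (SE 0.16), from signals of 3.82 to 4.10 to signals of 4.95 to 5.44, all below the array median. In the list of 40 measured gut epithelial genes, 4 rose and 1 fell (12.5%, beside 3.84% of all genes called). Beside Gpa33 and Tspan8 these were Slc26a3 (0.30, SE 0.06) and Krt20 (0.26, SE 0.07), both below the array median in signal, and Lgals4, a galectin, which fell by 0.51 (SE 0.11). Slc26a3, Krt20 and Lgals4 had adjusted p-values of 0.223, 0.400 and 0.306 without cKO replicates 2 and 3. Of 23 measured germline genes 3 were called, and each differed by less than 1 log2 unit: Rhox5 by 0.39, Syce1 by 0.18 and Piwil2 by -0.50. None of these 3 kept its call in that fit.

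The largest falls were of Tll1 and Serpina3n. Tll1, a tolloid metalloprotease that processes procollagen and releases BMPs from chordin, read 4.49, 4.42, 4.51 and 5.34 in cKO and 7.63, 6.90 and 7.26 in WT, a difference of -2.58 (SE 0.27, adjusted p = 0.000503). Serpina3n, a secreted inhibitor of serine proteases, read 5.29, 5.53, 5.46 and 5.90 in cKO and 8.31, 7.71 and 7.31 in WT, a difference of -2.23 (SE 0.19, adjusted p = 0.000122). For Tll1 every cKO array lay below the array median, where its signal was not tested against background. Mme, the membrane peptidase neprilysin, read 6.11, 6.25, 6.08 and 6.67 in cKO and 7.83, 7.63 and 7.92 in WT (difference -1.52, SE 0.13, adjusted p = 0.000124). All 3 were stable.

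Of 30 measured matrix proteases and inhibitors, 6 fell and none rose, 20% beside 1.85% of all genes called lower, with a list median of 0.04 against 0.01 over all genes. Beside Tll1 and Mme these were the gelatinase Mmp2 (-1.30, SE 0.25), Adamts9 (-0.67, SE 0.13), Mmp11 (-0.54, SE 0.11) and the membrane-bound Mmp14 (-0.51, SE 0.11), which activates pro-Mmp2. Other Adamts9 probe sets differed by -0.02 and -0.01. Without cKO replicates 2 and 3 the count was 2, Tll1 and Mme, and it was 3 without cKO replicate 2 and 2 without WT replicate 1, WT replicate 2 or cKO replicate 3. Mmp2 kept its difference of -1.31 in the fit without both replicates but had an adjusted p of 0.150. Papln, which encodes the matrix protein papilin, fell by 1.32 (SE 0.22) and had an adjusted p of 0.0527 there. Of 17 measured serpins 3 were called (17.6%, beside 3.84% of all genes). Serpina3n fell while Serpinb3a (0.85, SE 0.20) and Serpinb9 (0.36, SE 0.07) rose. Serpinb3a and Serpinb9 lost the call in that fit (adjusted p = 0.209 and 0.10).

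Genes of cell signalling were also among the largest falls. Kcnma1, the pore of the calcium-activated BK potassium channel, read 7.47, 7.13, 7.01 and 7.78 in cKO and between 8.61 and 9.21 in WT (difference -1.59, SE 0.20, adjusted p = 0.00161). Plpp3, a lipid phosphatase that breaks down lysophosphatidic acid outside the cell, read 7.42, 7.29, 7.43 and 8.39 against 9.40, 9.46 and 9.20 (difference -1.72, SE 0.27, adjusted p = 0.00731). Gfra2, a receptor for neurturin, read 7.93, 8.21, 8.15 and 8.82 against 9.61, 9.60 and 9.48 (difference -1.29, SE 0.20, adjusted p = 0.00658). In all 3 genes cKO replicate 4 read closest to WT. Enc1, an actin-binding protein of the kelch family, was lower by 1.38 log2 units (difference -1.38, SE 0.17). Kcnma1 and Enc1 were stable. Plpp3 and Gfra2 kept their calls in all fits that left out 1 array but not without cKO replicates 2 and 3 together (adjusted p = 0.0993 and 0.0917).

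Lists of signalling pathways held few called genes. In the list of 17 measured Notch genes only the ligand Jag1 was called (5.88%, beside 3.84% of all genes). Jag1 read 9.80, 9.73, 9.80 and 9.76 in cKO and 10.35, 10.38 and 10.48 in WT (difference -0.63, SE 0.08, adjusted p = 0.00137), and it was stable. Of 42 measured genes of BMP, TGF-beta and activin signalling 3 fell (7.14%, beside 1.85% of all genes called lower). These were the BMP antagonist Nog (-1.12, SE 0.21), the activin antagonist Fstl3 (-0.55, SE 0.09) and Crim1, which binds BMPs (-0.60, SE 0.14). In Nog, cKO replicates 1, 2 and 3 read 6.43, 6.37 and 6.45 and replicate 4 read 7.45, next to WT at 7.89, 7.72 and 7.78. Of 47 measured Wnt genes, the receptor Fzd3 (-0.86, SE 0.20) and the target Ccnd1, cyclin D1 (-0.41, SE 0.08), fell. This is 4.26% of the Wnt list, beside 1.85% of all genes called lower. Nog, Fstl3, Crim1, Fzd3 and Ccnd1 all lost the call without cKO replicates 2 and 3, with adjusted p-values of 0.176, 0.0881, 0.333, 0.339 and 0.0558.

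Targets of the transcriptional coactivator YAP were called in both directions, 23.8% of the list beside 3.84% of all genes. Of 21 measured, Ccn2 (-1.35, SE 0.31), Fjx1 (-1.02, SE 0.16), Crim1 and Rbms3 (-0.19, SE 0.04) fell and Gadd45a (0.98, SE 0.21) rose. Ccn2, a secreted matricellular protein also known as CTGF, read 7.60, 6.34, 6.76 and 7.81 in cKO and 8.55, 8.21 and 8.66 in WT. Its lowest arrays were cKO replicates 2 and 3, and without both its adjusted p was 0.224. None of the 5 genes kept the call in that fit. Other Rbms3 probe sets differed by -0.90, -0.70 and -0.27. In the list of 16 EGF receptor genes, the ligand Hbegf, the only call (6.25% of the list), rose by 1.05 (SE 0.22, adjusted p = 0.262 without the 2 arrays).

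Homeobox genes of the Hox clusters, transcription factors that hold positional identity, included 11 called lower and none called higher among 34 measured. The share, 32.4%, stands beside 1.85% of all genes called lower, and the list median was -0.19. Hoxa3 read 8.87, 8.55, 8.62 and 8.71 in cKO and 9.64, 9.59 and 9.48 in WT (difference -0.89, SE 0.11, adjusted p = 0.00137). Hoxa5 read 7.11, 6.73, 6.76 and 6.96 against 7.66, 7.84 and 7.77 (difference -0.87, SE 0.09, adjusted p = 0.000433). Hoxb5 read 7.81, 7.03, 7.41 and 7.92 against 8.82, 8.69 and 8.60 (difference -1.16, SE 0.19, adjusted p = 0.00733). In all 3 the groups lay apart and cKO replicate 2 was the lowest array. The mean over the 34 genes was 5.89 to 6.19 in cKO and 6.31 to 6.42 in WT, against 5.54 to 5.65 on IFE WT arrays. The part of this difference between compartments in the Hox falls was not tested.

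The other Hox genes with the smallest p-values were Hoxd9 (-1.31, SE 0.20), Hoxb7 (-0.65, SE 0.10) and Hoxd8 (-0.90, SE 0.18). Hoxb6 had the largest difference, -1.58 (SE 0.36), with cKO replicates 2 and 3 at 4.90 and 5.10, replicates 1 and 4 at 6.70 and 6.13, and WT between 7.08 and 7.39. The remaining 4 called genes, Hoxb2, Hoxb8, Hoxa7 and Hoxa2, differed by -0.61, -1.14, -0.48 and -0.38. All 11 belonged to paralog groups 2 to 9, and 5 lay in cluster B, 4 in A, 2 in D and 0 in C. Of the 19 measured Hox genes whose mean signal over the bulge arrays was above the median of all probe sets, 10 were called, with a median of -0.61. Of the 15 dimmer ones 1 was called, and only 2 of the 10 genes of paralog groups 10 to 13 were among the brighter 19. Hoxc8, at a mean signal of 8.78, differed by -0.84 and was not called (adjusted p = 0.151).

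Hoxa3, Hoxa5, Hoxb5 and Hoxb7 were stable, and the count of called Hox genes was 4 without cKO replicates 2 and 3. It was 5 without WT replicate 2 and also without cKO replicate 2 or cKO replicate 3, 6 without WT replicate 1 or WT replicate 3, 7 without IFE cKO replicate 3 and 14 without cKO replicate 4. For the other arrays it was between 8 and 12. Without cKO replicates 2 and 3, Hoxd9 had an adjusted p of 0.0605, Hoxd8 of 0.221 and Hoxb6 of 0.178.

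**Figure D2:**
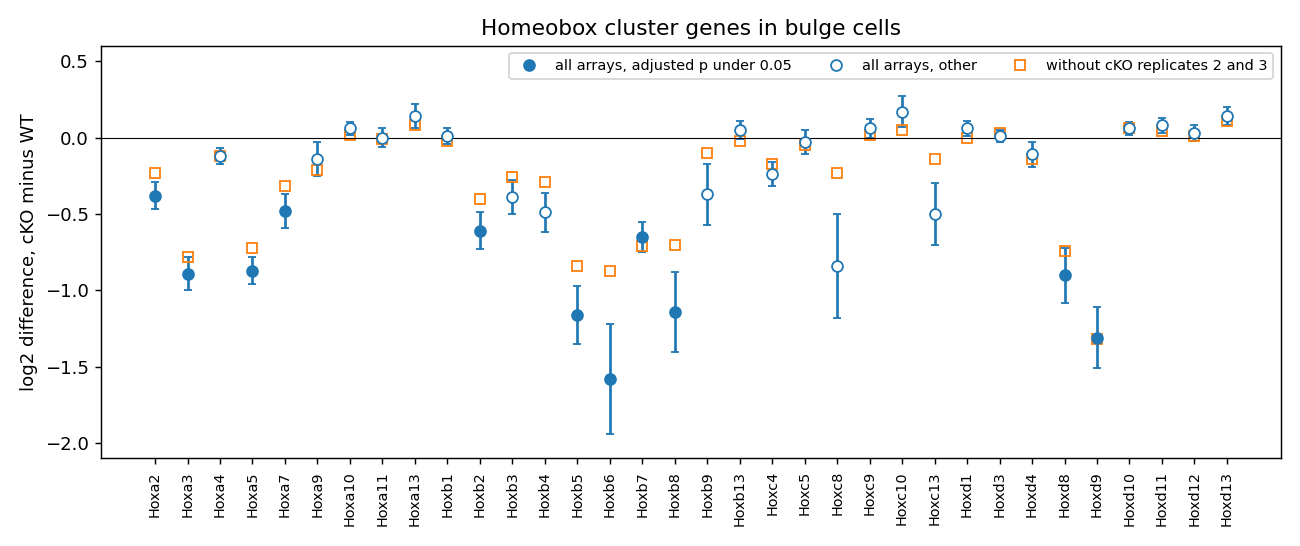
Log2 difference between bulge cKO and WT (vertical axis) for each of the 34 measured Hox genes, ordered by cluster and paralog group, with filled circles for called genes, open circles for the others, limma standard errors as bars, and orange squares for the fit without cKO replicates 2 and 3. The 11 called genes lie below 0 in both fits, and none belongs to paralog groups 10 to 13.

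Genes that define the bulge read lowest on cKO replicates 2 and 3, and few passed the test. Cd34, the surface marker of bulge stem cells, read 10.55, 9.84, 9.95 and 11.18 in cKO and 11.43, 10.93 and 10.99 in WT (difference -0.73, SE 0.41, adjusted p = 0.272). Lgr5, a receptor for R-spondins, read 9.20, 8.70, 8.76 and 10.17 against 10.73, 10.16 and 10.37 (difference -1.22, SE 0.40, adjusted p = 0.0933). In both genes cKO replicate 4 lay within the WT range and the other cKO arrays below it, replicates 2 and 3 lowest. Without those arrays Cd34 differed by -0.25 (adjusted p = 0.914) and Lgr5 by -0.74 (adjusted p = 0.628). A second Lgr5 probe set differed by -1.08 with an adjusted p of 0.00575 over all probe sets.

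Over the 31 bulge surface, niche and signal genes the median difference was -0.59, 30 were negative and 1, Fzd3, was called (3.23%, beside 3.84% of all genes). Their mean signal was 9.59, 8.87, 9.01 and 9.80 in cKO against 9.84 to 10.02 in WT. Over 20 bulge transcription factors, among them Lhx2, Sox9 and Tcf7l1, the median was -0.42, none was called, and the means were 9.12, 8.51, 8.64 and 9.16 in cKO against 9.16 to 9.28 in WT. In both lists cKO replicates 2 and 3 were the lowest of the bulge arrays. Without these arrays the medians were -0.17 and -0.11 and no member of either list was called. Without cKO replicate 4, the array nearest to WT, 11 surface genes and 7 transcription factors were called, all lower, and without cKO replicate 1 the counts were 3 and 4. Fzd3 lost its call without any 1 of the other bulge arrays. The keratin Krt15, high in bulge and basal cells, stayed between 11.73 and 12.18 on all 7 arrays. In bulk samples such as these, fewer cells of a type and less RNA of a gene per cell cannot be told apart.

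Genes of suprabasal and cornifying keratinocytes showed the opposite pattern over the arrays. The mean signal of 31 suprabasal and cornified envelope genes was 7.25, 8.24, 8.09 and 7.80 in cKO, 6.89 to 7.29 in bulge WT and 7.75 to 8.14 in IFE WT. Replicate 1 of the cKO lay within the WT range and replicates 2, 3 and 4 above it. The list median was 0.60, and 3 members rose (9.68%, beside 1.98% of all genes called higher). These were the cornified envelope precursor Sprr1a (1.53, SE 0.35), the calmodulin-like Calm4 (1.71, SE 0.41) and Cysrt1 (0.58, SE 0.12). Krt1, the suprabasal keratin, read 9.36, 11.93, 11.75 and 11.31 in cKO and 9.41 to 9.87 in WT and was not called (adjusted p = 0.0848).

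Of 22 cornification proteases and crosslinkers 3 rose (13.6%, beside 1.98% of all genes called higher) and none fell, with a median of 0.61. Casp14, the caspase that processes filaggrin, read 6.08, 8.90, 8.66 and 7.39 in cKO and 5.62, 4.82 and 5.86 in WT (difference 2.32, SE 0.54, adjusted p = 0.0373). The kallikrein Klk11 rose by 1.98 (SE 0.38) and Serpinb3a was the third. Among 22 transcription factors of keratinocyte differentiation, Ovol1 and Tfap2c rose (9.09% of the list), by 1.18 (SE 0.29) and 1.18 (SE 0.27). Mt4, a metallothionein of stratified epithelia, read 6.11, 8.75, 8.52 and 7.90 against 5.56, 5.57 and 5.29 (difference 2.35, SE 0.50, adjusted p = 0.0279). Clca3a2, a member of the chloride channel accessory family, rose by 2.14 (SE 0.51). For these genes other than Serpinb3a, replicate 1 was the lowest cKO array and replicates 2 and 3 the highest.

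Without cKO replicates 2 and 3, no suprabasal gene was called and the list's median was 0.44. Of the proteases and crosslinkers Klk11 alone kept its call (difference 1.20, adjusted p = 0.0373), with a list median of 0.30. Casp14, Mt4, Clca3a2, Ovol1 and Tfap2c had adjusted p-values of 0.237, 0.229, 0.279, 0.340 and 0.299 there. Leaving out cKO replicate 2 or 3, or WT replicate 1 or 2, singly also ended the calls of these 5 genes, with adjusted p-values up to 0.181. The 3 suprabasal calls became 0 without any 1 of cKO replicates 2 and 3 and WT replicates 1 and 2, and 10 without cKO replicate 1 and 5 without cKO replicate 4. For the proteases and crosslinkers the count of rises was 9 without cKO replicate 1, beside 1 fall, and 0 without WT replicate 1, WT replicate 2 or cKO replicate 3. The part of cKO replicates 2 and 3, and of their position toward the IFE arrays, in these results was not tested.

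Barrier lipid genes, which make and move the ceramides and fatty acids of the cornified layer, had 2 called members, both higher and both stable. Pla2g4f, a cytosolic phospholipase A2, read 7.51, 8.69, 8.56 and 8.04 in cKO and 5.73, 5.39 and 5.54 in WT (difference 2.64, SE 0.25, adjusted p = 0.000234). Abca12, the transporter that loads lipid into lamellar granules, read 6.01, 7.57, 7.35 and 6.62 in cKO and 4.24, 4.27 and 4.92 in WT (difference 2.41, SE 0.31, adjusted p = 0.00200). Both were above every WT array also on cKO replicates 1 and 4, and without replicates 2 and 3 they differed by 2.22 and 1.84 (adjusted p = 0.00154 and 0.00722). Of the 29 measured genes of the list 28 were positive, with a median of 0.67, and 0.24 without the 2 arrays. The 2 called members were 6.90% of the list, beside 1.98% of all genes called higher. The count of called members was 12 without cKO replicate 1 and 6 without cKO replicate 4. Elovl4, which lengthens fatty acids for barrier ceramides, read 7.06, 10.54, 10.15 and 9.44 against 7.71, 6.73 and 6.92 and was not called (adjusted p = 0.0710).

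**Figure D3:**
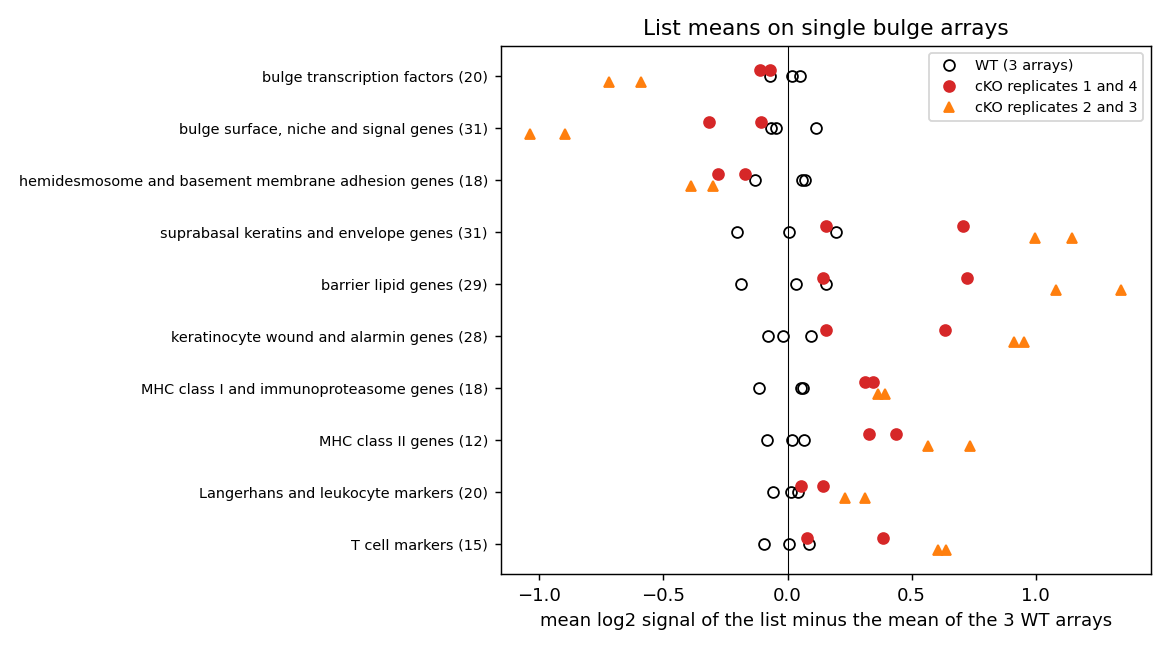
Mean log2 signal over the measured members of 10 lists (number in brackets) on single bulge arrays, minus the mean of the 3 WT arrays (horizontal axis), with open circles for WT, red circles for cKO replicates 1 and 4 and orange triangles for cKO replicates 2 and 3. The bulge lists are lowest and the suprabasal and barrier lipid lists highest on cKO replicates 2 and 3, whereas the 4 cKO arrays lie together above WT for MHC class I. The class I mean on IFE WT arrays (8.42 to 8.49, not shown) was higher than on any bulge array.

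Adhesion genes of the basal side differed slightly. Of 18 measured hemidesmosome and basal integrin genes 17 were negative, with a median of -0.30, and Lama3 (-0.40, SE 0.10), a chain of laminin-332, and the integrin Itgb4 (-0.36, SE 0.09) fell. These 2 were 11.1% of the list, beside 1.85% of all genes called lower. Without cKO replicate 4 the count of falls in this list was 9, and 0 without any 1 of cKO replicates 2 and 3 and WT replicates 1 and 2. A second Lama3 probe set differed by 0.05. None of 14 desmosome genes was called (median 0.16). Of 27 measured collagen genes, the basement membrane chains Col4a6 and Col4a5 fell and Col15a1 rose by 0.19 from a signal below the array median. These 3 were 11.1% of the list, beside 3.84% of all genes called. Col4a6 read 6.82, 7.01, 7.04 and 6.95 in cKO and 7.60, 7.54 and 7.62 in WT (difference -0.63, SE 0.08, adjusted p = 0.00207) and was stable. Col4a5, its neighbour on the X chromosome, differed by -0.42 (SE 0.07) and had an adjusted p of 0.0780 without cKO replicates 2 and 3, where Lama3, Itgb4 and Col15a1 also lost the call (adjusted p = 0.313, 0.345 and 0.216). In the list of 12 upper follicle genes, Cdh3, P-cadherin, fell by 0.50 (SE 0.11), the only call (8.33% of the list). A second Cdh3 probe set differed by 0.15 and the call was lost without cKO replicates 2 and 3 (adjusted p = 0.265).

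Among genes of MHC class I antigen presentation several rose, and the list's mean was higher on all 4 cKO arrays. The mean signal over 18 measured genes was 8.33, 8.41, 8.38 and 8.36 in cKO and 8.07, 7.90 and 8.08 in WT, and the groups did not overlap. On IFE WT arrays it was 8.42 to 8.49, above all bulge arrays. Of the 18 genes, 8 rose and none fell, 44.4% beside 1.98% of all genes called higher. Nlrc5, the transactivator of MHC class I genes, read 8.17, 8.74, 8.58 and 8.16 in cKO and 6.97, 6.80 and 7.25 in WT (difference 1.40, SE 0.16, adjusted p = 0.00113). Psmb8, a catalytic subunit of the immunoproteasome, read 8.91, 8.94, 8.86 and 8.88 in cKO and 8.11, 7.64 and 8.25 in WT (difference 0.90, SE 0.11, adjusted p = 0.00181). On IFE WT arrays Nlrc5 read 8.82 to 9.26 and Psmb8 9.40 to 9.54. The other members with the smallest p-values were the class I heavy chains H2-M3 (0.79, SE 0.11), H2-D1 (0.45, SE 0.06), H2-Q4 (1.27, SE 0.18) and H2-T10 (0.45, SE 0.07).

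Nlrc5, Psmb8, H2-M3, H2-D1 and H2-Q4 were stable, and without cKO replicates 2 and 3 the class I list had 5 called members and a median of 0.19, against 0.23 with all arrays. The H2 genes are near copies of each other, and probe sets may share transcripts. Other H2-D1 probe sets differed by -0.05, -0.10, 0.26 and 0.80. Fits that left out 1 array called 6 to 11 members higher, and without cKO replicate 4 a further 2 members were called lower.

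Class II genes behaved differently over the arrays. Of 12 measured, 4 rose (33.3%, beside 1.98% of all genes called higher). H2-Ab1 read 7.70, 9.42, 9.01 and 8.17 in cKO and 6.05, 6.07 and 6.55 in WT (difference 2.35, SE 0.41, adjusted p = 0.0112), H2-Eb1 differed by 0.97 (SE 0.18), Cd74, the invariant chain, by 0.87 (SE 0.19) and H2-Aa by 0.76 (SE 0.15). All 4 were highest on cKO replicates 2 and 3, and none kept its call without them (adjusted p = 0.0978, 0.154, 0.246 and 0.205). The count was 0 without WT replicate 1 or WT replicate 2, 1 without cKO replicate 3 and 2 without cKO replicate 2. Other probe sets differed by 0.63 and 0.38 for H2-Ab1 and by 0.81 and 0.11 for H2-Aa.

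Markers of Langerhans cells, other leukocytes and T cells had mean signals near the array median. The mean over 20 Langerhans cell and leukocyte markers was 5.83, 6.09, 6.01 and 5.92 in cKO and 5.72 to 5.82 in WT. Cd207, langerin, read 5.21, 6.04, 5.76 and 5.67 against 4.99 to 5.25, and Tyrobp, an adaptor of myeloid receptors, was the only called member (0.42, SE 0.10, adjusted p = 0.0373, and 0.345 without cKO replicates 2 and 3). Over 15 T cell markers the means were 5.56, 6.09, 6.12 and 5.87 in cKO and 5.39 to 5.57 in WT, none was called, and Cd3g read 5.79, 7.03, 7.29 and 6.62 against 5.13 to 5.62. In both lists cKO replicates 2 and 3 were the highest arrays, as for class II. Their part in the class II and class I results was not tested.

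Of 31 measured interferon response genes 3 were called (9.68%, beside 3.84% of all genes). Trim30d, of an interferon-regulated TRIM family, read 5.52, 6.04, 6.29 and 5.94 in cKO and 4.28, 4.33 and 4.00 in WT (difference 1.74, SE 0.20, adjusted p = 0.00113) and was stable. The transcription factor Irf1 rose by 1.01 (SE 0.19) and the deubiquitinating enzyme Usp18, an interferon-induced gene, fell by 0.58 (SE 0.14). Both lost the call without cKO replicates 2 and 3 (adjusted p = 0.112 and 0.357). Usp18 read 4.89 to 5.78 on the bulge arrays. Other Trim30d probe sets differed by 0.68 and 0.23.

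Alarmins, inflammatory caspases and related keratinocyte genes were called in 5 of 28 cases, all higher, with a list median of 0.40. This is 17.9%, beside 1.98% of all genes called higher. Casp1, which processes interleukin-1 beta, read 8.07, 7.89, 7.96 and 8.23 in cKO and 7.34, 7.11 and 7.25 in WT (difference 0.80, SE 0.10, adjusted p = 0.00151) and was stable. Casp4, an inflammatory caspase activated by lipopolysaccharide, read 6.23, 8.62, 8.32 and 7.57 in cKO and 5.63, 5.28 and 5.65 in WT (difference 2.17, SE 0.46, adjusted p = 0.0285). The spread over the cKO arrays was narrow for Casp1 and wide for Casp4. The cystatin-like Stfa3 rose by 1.89 (SE 0.32), the gasdermin Gsdmc by 1.77 (SE 0.40), and Hbegf was the fifth. The count was 10 without cKO replicate 1, 2 without WT replicate 2 or either of cKO replicates 2 and 3, and 1 without WT replicate 1. Without cKO replicates 2 and 3 only Casp1 of the list was called and the median was 0.19, with adjusted p-values of 0.222 for Casp4, 0.127 for Stfa3 and 0.296 for Gsdmc.

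Of 24 measured p53 targets 3 rose (12.5%, beside 1.98% of all genes called higher). These were the apoptosis inducer Pmaip1 (1.86, SE 0.32), Gadd45a and the cell cycle inhibitor Cdkn1a (0.82, SE 0.18). Pmaip1, which encodes NOXA, read 7.05, 8.58, 8.47 and 7.57 in cKO and 6.01, 6.03 and 6.12 in WT, and kept its call without cKO replicates 2 and 3 (difference 1.26, adjusted p = 0.0450) but not without WT replicate 1 or WT replicate 2 (adjusted p up to 0.0568). Among 24 immediate early genes Nr4a3 (1.24, SE 0.17), Egr2 (1.05, SE 0.22) and Nr4a2 (0.55, SE 0.12) rose, also 12.5%. Nr4a3, an orphan nuclear receptor, read 8.45, 8.81, 8.55 and 8.15 against 6.86, 7.31 and 7.61 and was stable. Other Nr4a2 probe sets differed by 0.78, 0.01, 0.60 and -0.01, the first at a limma adjusted p of 0.0108 over all probe sets. WT replicate 1 was the lowest array for all 3 genes. Egr2, Nr4a2, Cdkn1a and Gadd45a lost the call without cKO replicates 2 and 3 (adjusted p = 0.261, 0.250, 0.278 and 0.221). Tcim, a positive regulator of Wnt signalling also known as TC1, read 7.76, 9.23, 9.10 and 8.12 against 6.19, 6.30 and 6.46 and was stable (difference 2.24, SE 0.30, adjusted p = 0.00264). On IFE WT arrays Tcim read 9.80 to 10.41.

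Among 26 genes of lysophosphatidic acid and prostaglandin metabolism 3 rose and 3 fell (23.1%, beside 3.84% of all genes called). Beside Pla2g4f, the prostaglandin D synthase Hpgds rose by 1.62 (SE 0.37) and the prostaglandin E receptor Ptger3 by 0.26 (SE 0.06). Beside Plpp3, the prostaglandin-degrading enzyme Hpgd fell: it read 4.81, 5.01, 5.21 and 5.86 in cKO and 6.76, 6.64 and 6.24 in WT (difference -1.33, SE 0.26, adjusted p = 0.0212). Pla2g4a, another cytosolic phospholipase A2, was also lower (-0.66, SE 0.11). Pla2g4f kept its call without cKO replicates 2 and 3, and the other 5 did not, with adjusted p-values of 0.246 for Hpgds, 0.184 for Ptger3, 0.202 for Hpgd and 0.0524 for Pla2g4a. Igsf10, a secreted immunoglobulin superfamily protein, fell by 1.56 (SE 0.31) and the cytochrome P450 gene Cyp2d22 by 1.32 (SE 0.25), and both lost the call in that fit (adjusted p = 0.222 and 0.133).

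Chromatin genes other than Ehmt2 moved little. None of 23 measured genes of H3K9 methylation, its readers and demethylases was called (median -0.06). Of 16 DNA methylation genes, the methyl-CpG binding proteins Mbd1 (-0.27, SE 0.06) and Zbtb4 (-0.60, SE 0.14) fell (12.5%, beside 1.85% of all genes called lower). Their adjusted p-values were 0.316 and 0.354 without cKO replicates 2 and 3. Other Mbd1 probe sets differed by -0.08, -0.53, -0.03 and 0.10. Of 38 cell cycle genes only Ccnd1 was called (2.63%, beside 3.84% of all genes). Of 32 genes of ribosome biogenesis 2 fell (6.25%, beside 1.85% of all genes called lower). Nop53, a nucleolar factor needed for the large ribosomal subunit, read 9.57, 9.59, 9.51 and 9.90 in cKO and 10.42, 10.55 and 10.44 in WT. It differed by -0.83 (SE 0.10, adjusted p = 0.00122) and was stable, and Nop14 fell by 0.27 (SE 0.05). Of 18 metallothionein and zinc genes, Mt4 rose and the zinc importer Slc39a10 fell by 0.21 (SE 0.05), 11.1% beside 3.84% of all genes. Nop14 and Slc39a10 were not called without the 2 arrays (adjusted p = 0.174 and 0.372).

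Markers of other skin cells were mostly not called. None of 12 melanocyte or 15 fibroblast markers passed the test, with medians of 0.07 and 0.11. In the lists of 15 endothelial and muscle, 16 sebaceous, 19 hair shaft and 13 Merkel cell markers 1 gene each rose: Emcn (0.28, SE 0.06), Pparg (0.37, SE 0.09), Krt31 (0.19, SE 0.05) and Krt20. These 4 calls were 6.67%, 6.25%, 5.26% and 7.69% of their lists, beside 1.98% of all genes called higher. All 4 were lost without cKO replicates 2 and 3. The mean over the sebaceous markers was 6.77, 7.48, 7.20 and 7.12 in cKO and 6.64 to 6.89 in WT, and that over the fibroblast markers 5.27, 5.74, 5.59 and 5.31 in cKO.

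**Figure D4:**
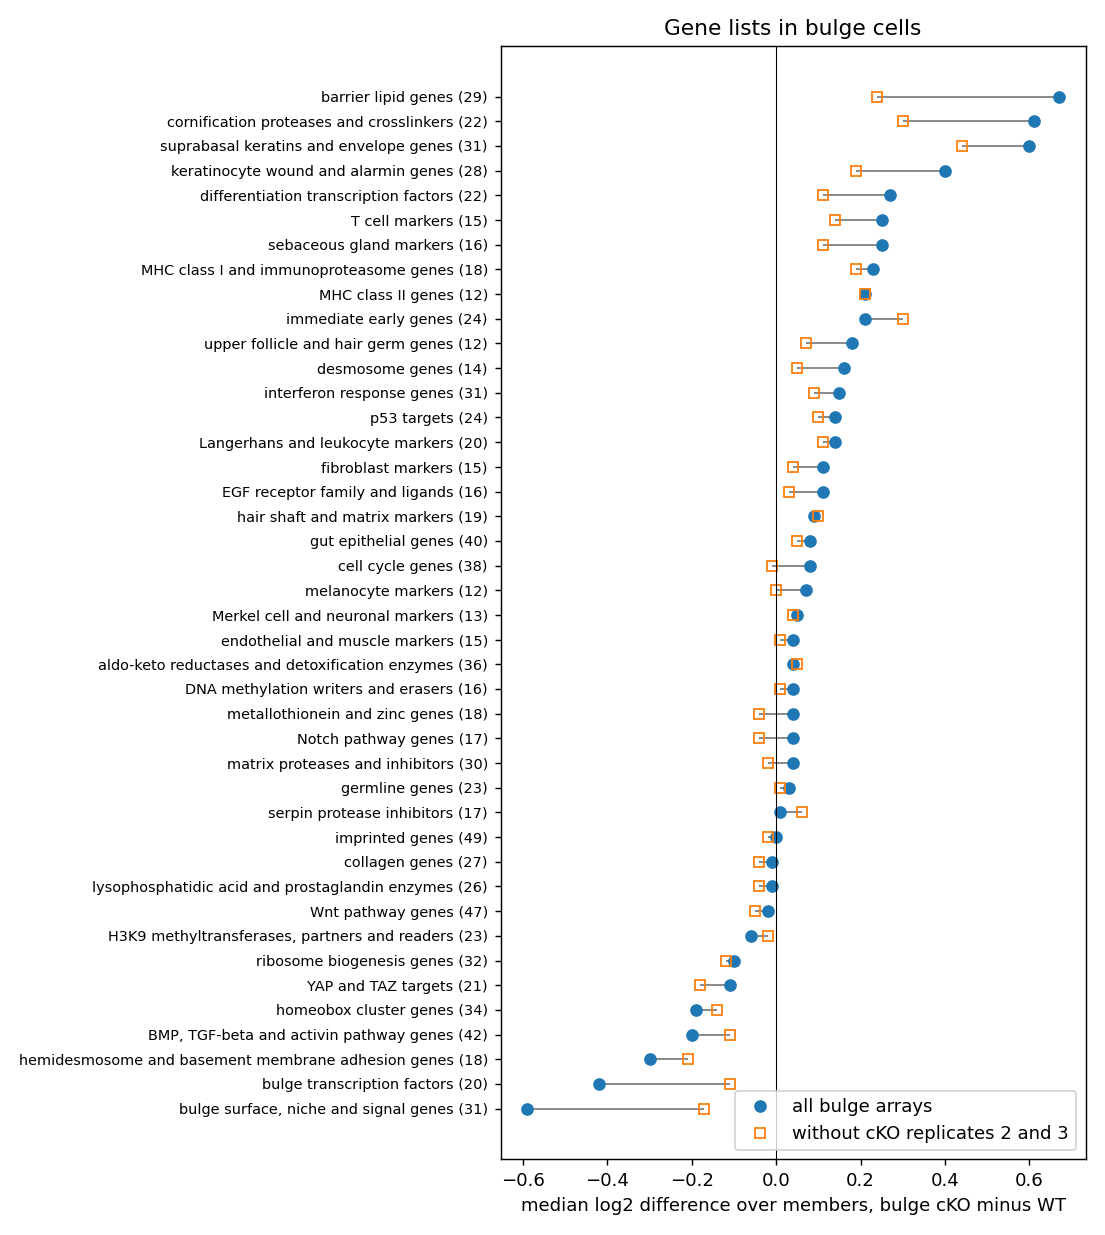
Median log2 difference between bulge cKO and WT over the measured members of each list (horizontal axis, number of members in brackets), with filled circles for all bulge arrays and open squares for the fit without cKO replicates 2 and 3. The bulge and differentiation lists lie farthest from 0 with all arrays and move toward 0 without the 2 arrays, while MHC class I moves from 0.23 to 0.19.

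The difference between cKO and WT, here called the effect, in bulge cells was set beside that in IFE cells, where 85 genes were called (0.497% of genes tested). A set of 43 genes was called in the same direction in both compartments, 34 higher and 9 lower, which is 6.55% of the bulge calls and 50.6% of the IFE calls. It included Minar2, Gpa33, Akr1c12, Akr1c13, Tspan8, Slc38a4, Xkr6, Trim30d, Snrpn, Snurf, Casp1 and Nop53. In IFE cells Gpa33 differed by 2.87, Akr1c12 by 3.21, Minar2 by 4.35 and Tspan8 by 3.04. For these 4 genes the difference between the 2 effects was not called (adjusted p between 0.188 and 0.326).

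A test of the difference of effects called 18 genes (0.105% of genes tested), of which 14 had a lower difference in bulge than in IFE cells. Slc38a4 rose by 2.12 in bulge and by 4.18 in IFE cells (effect in bulge minus effect in IFE -2.06, adjusted p = 0.0228). Its cKO signals were close, 9.70 to 9.94 in bulge and 9.38 to 9.69 in IFE cells. The WT signals were further apart, 7.37 to 8.26 in bulge and 4.93 to 5.56 in IFE cells. Serpina3n differed by -2.23 in bulge and -0.28 in IFE cells (adjusted p of the difference 0.0228), and Mme by -1.52 and -0.24 (0.0284). On IFE WT arrays Serpina3n read 5.12 to 5.32, below the array median, and Mme 5.64 to 5.86, near it. The part of these low starting signals in the differences of effects was not tested. Hoxa5 differed by -0.87 and -0.06 (0.0375), Sorcs3, a neuronal sorting receptor, by -0.74 and 0.05 (0.0228), and Phka1, a subunit of phosphorylase kinase, by -0.56 and 0.22 (0.000507). These 5 genes were lower in bulge cKO cells, and none was called changed in IFE cells.

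Tmem176b and Tslp were called through their IFE values. Tmem176b, a membrane protein of dendritic cells, differed by -0.14 in bulge and 0.77 in IFE cells (adjusted p of the difference 0.00959). Tslp, an epithelial cytokine, differed by 0.13 and -0.66 (0.0223), at signals of 4.12 to 4.29 on bulge arrays. Dusp26, a dual specificity phosphatase, rose in bulge by 0.53 and differed by 0.06 in IFE cells (0.0327), and Slc41a3, a magnesium transporter, by 0.26 and -0.19 (0.0411). The count of 18 was sensitive to single arrays. It was 3 without IFE cKO replicate 3 and also without cKO replicate 2 or cKO replicate 3, 4 without IFE WT replicate 1 or IFE WT replicate 2, and 7 without IFE cKO replicate 1. It was 8, 10 and 11 without WT replicates 3, 1 and 2, 11 without IFE WT replicate 3, 240 without cKO replicate 4, and 3 without cKO replicates 2 and 3 together. Tll1, Kcnma1, Gfra2 and Hoxa3 fell in bulge cells and were not called in IFE cells. For these genes the difference of effects did not pass the test (adjusted p = 0.221, 0.0650, 0.0766 and 0.0572). In IFE cells Tll1 differed by -1.34 (limma adjusted p = 0.0540), with cKO arrays at 3.45 to 4.13 and WT arrays at 4.86 to 5.66. These signals all lay below the array median. Kcnma1, Gfra2 and Hoxa3 differed there by 0.01, 0.25 and -0.00.

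**Figure D5:**
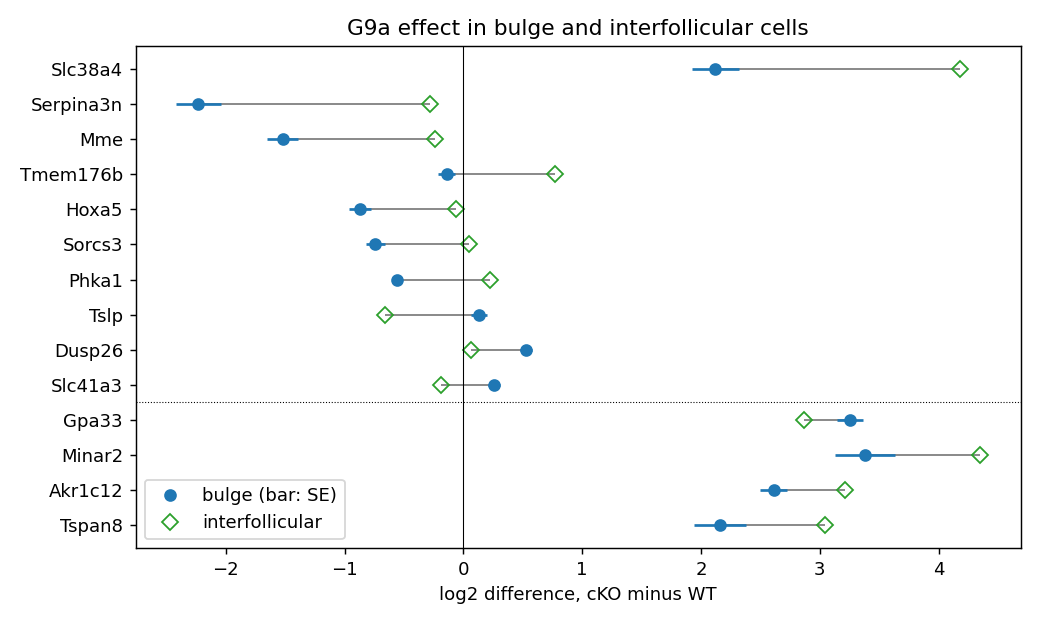
Log2 difference between cKO and WT (horizontal axis) in bulge cells (circles, with limma's standard error) and in IFE cells (diamonds), for the 10 named genes called in the difference of effects above the dotted line and for 4 rises shared by both compartments below it. Serpina3n and Mme lie far below 0 in bulge cells only, and Slc38a4 lies above 0 in both, at 2.12 and 4.18. Signals on IFE WT arrays (not shown) were 5.12 to 5.32 for Serpina3n and 5.64 to 5.86 for Mme.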

How the data were processed

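TRizol-extracted RNA of each sample was amplified as cDNA by whole-transcriptome amplification, tagged with biotin and put on an Affymetrix array, as the labels' protocols state. The authors deposited a log2 signal per probe set, made with RMA per the submitters' processing notes. RMA subtracts background, forces the arrays to one distribution (quantile normalisation) and combines the probes of a set, so a shift shared by all genes of an array is removed. The sources used here do not give the RMA version.

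Of 45141 probe sets, 28898 had a single gene symbol (28689 from the reference annotation, 209 from the platform), 551 several and 15692 none. Each of 17097 genes was represented by its probe set with the highest mean over all 14 arrays, a choice among several for 7180 genes. Ehmt2 aside, the named genes had 93 other probe sets, of which 53 passed the threshold, 0 of them in the opposite direction. Their differences were often of another size. A mean per group was fitted over all 14 arrays with limma 3.58.1 in R 4.3.3 (functions lmFit and eBayes, 10 residual degrees of freedom), tests were two-sided, and the Benjamini-Hochberg adjustment ran over all 17097 genes. Standard errors are limma's. No fold minimum was set. Array number limits the precision.

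The members, the gene lists and the tests were chosen with earlier results of these data known. Lists are described by counts and medians only. Text names Ehmt2, Ehmt1, Cd34, Lgr5, Tll1, Serpina3n and Gpa33, the 15 largest rises and falls among called genes without overlap between groups, up to 6 called members of each list with the smallest p, and up to 8 genes in each direction of the difference of effects, leaving out unnamed gene models and Riken clones. Other genes given were chosen after their values were seen. Alternatives changed the scaling (median centring or cyclic loess), the genes (dim ones left out, probe sets averaged or tested singly), the model (bulge arrays alone, array weights, robust fitting with a trend, a block for replicate number), the threshold (a fold minimum, a looser adjusted p) and the arrays (each left out in turn, or bulge cKO replicates 2 and 3 together). The set of genes called in every fit without an array was added after seeing the data. The scripts were tested on simulated data.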

Additional observations from a re-analysis of the deposited data

Results flagged for a closer look

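Within the 4 bulge cKO arrays, 7 of 114 named genes had 1 array far from the other 3 by Dixon's test of the gap against the group's range. Chance marks about 1 gene in 20 this way. Replicate 4 was the high array for Tll1 (5.34), Plpp3 (8.39), Nog (7.45) and Igsf10 (7.81), in each case toward the WT level. Replicate 2 was the high array for Hoxb7 (8.41) and the low array for Col4a5 (5.80), and replicate 1 the low array for Pla2g4a (6.15).

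The effect, cKO minus WT, differed between bulge and interfollicular cells in the limma test of the difference itself for 10 named genes. The effect in bulge minus that in interfollicular cells was -2.06 for Slc38a4, -1.95 for Serpina3n, -1.28 for Mme, -0.91 for Tmem176b, -0.81 for Hoxa5, -0.79 for Sorcs3 and -0.79 for Phka1. It was 0.79 for Tslp, 0.47 for Dusp26 and 0.44 for Slc41a3.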

How the results depend on the processing

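The count of 656 changed genes was 616 with cyclic loess, 564 with median centring, 810 with probe sets averaged per gene and 768 with an intensity trend and robust fitting. It moved to 408 with only genes above the median signal (fewer genes tested), 8242 with array weights (whose fit did not converge fully), 72 with only the 7 bulge arrays (fewer samples), 116 without bulge cKO replicates 2 and 3 together, 1646 with every probe set tested by itself, 224 at a minimum of 1.5-fold, 2015 at an adjusted p under 0.1, and 77 for genes called in every fit without an array or that pair. Leaving out 1 array gave 116 to 2553. The count of 18 for the difference of effects moved to 5, 4974, 3, 65, 11 and 49 with the median filter, array weights, without that pair, every probe set, 1.5-fold and adjusted p under 0.1, and leaving out 1 array gave 3 to 240. The causes were not tested.

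Deviations of same-numbered samples correlated between -0.62 and 0.25, so the numbers were not taken to pair samples, and with the replicate block the counts were 412 and 2. The brighter Ehmt2 probe set, at 0.01, reversed to -0.02 with median centring, -1.84 with the mean of its probe sets, -0.09 with array weights and -0.01 with the replicate block. Leaving out 1 array gave -0.04 to 0.06, and it was -0.04 without bulge WT replicate 3 and -0.01 without bulge cKO replicate 4. Of the 114 named genes, 71 lost their call without bulge cKO replicates 2 and 3, and 80 lost it with only the 7 bulge arrays. Ehmt2, Ehmt1, Cd34, Lgr5, Tmem176b and Tslp are among the 114 but had no bulge call to lose. Median promoter CG counts of called genes were 5 for rises and 10 for falls at a minimum of 1.5-fold. No depth applies to arrays, and signals below the array median were not tested against background.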
